A study of Homo sapiens with 4 samples.

Results

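The expression of 8 genes of fatty acid oxidation and of the nuclear receptor PPAR-alpha was examined in HepG2 cells after inhibition or knockdown of the cell cycle kinases CDK4 and CDK6. The genes were taken by symbol from the deposited count tables and made up 8 of the 24462 gene symbols listed there: CPT1A, CPT2, ACADM, ACADVL, HADHA, HADHB, PLIN2 and ANGPTL4. Each of the 8 symbols was listed once, and all 8 passed the filter used below, which was at least 10 reads in either library of a comparison. ANGPTL4, with 7 reads in scrambled siRNA, passed through the other library of its comparisons. HepG2 is a human liver cancer cell line. One QuantSeq 3′ mRNA library was sequenced from each of 4 conditions, so no group had replicates. Cells were given the solvent DMSO, PD0332991 (palbociclib, an inhibitor of the CDK4 and CDK6 kinases, kept as a stock in DMSO), a scrambled siRNA, or siCDK4 together with siCDK6 (CDK4/6 KD). The dose, the length of exposure and the interval between transfection and harvest are not given for these cells in the sources used here.

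Long-chain fatty acids enter the mitochondrial matrix as carnitine esters and are then shortened by the repeating reactions of beta-oxidation. In liver this supplies energy and the acetyl-CoA for ketone bodies during fasting. PPAR-alpha is a receptor that binds fatty acids and, paired with RXR, activates genes of this pathway. All 8 genes are known as its targets. PLIN2 coats lipid droplets, the stores from which fatty acids are drawn, and ANGPTL4 is a secreted inhibitor of lipoprotein lipase.

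The libraries held 8983848 to 11176880 counted reads, and 12780 to 13257 genes had at least 10 reads in each. CDK4 was counted at 301 CPM in DMSO, 257 in PD0332991, 354 in scrambled siRNA and 71.9 in CDK4/6 KD. The values of CDK6 were 515, 479, 536 and 129 CPM in the same order. CPM are a gene's reads per 1000000 reads of the library, with library sizes scaled by the trimmed mean of M-values (TMM). Both targets were thus lowest in the library labelled as their knockdown. All 8 hepatocyte markers were above 3 reads in every library, with summed levels between 15300 and 19500 CPM, highest in CDK4/6 KD. Folds are ratios of TMM-scaled counts with 0.5 reads added, given with an exact 95% Clopper-Pearson interval on the split of the reads. These intervals cover counting error only. They compare libraries and not conditions, because the spread between cultures was not measured, and no p-value is given.

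Between CDK4/6 KD and scrambled siRNA, 2 of the 8 genes were at least 2-fold higher, CPT1A and ANGPTL4, against 9.19% of the 13617 genes past the filter, and none was at least 2-fold lower, against 7.62% of them. Between PD0332991 and DMSO, none of the 8 passed 2-fold in either direction, where 7.49% of 13443 genes were higher and 7.07% lower. Between the controls, scrambled siRNA and DMSO, 1 of the 8 was at least 2-fold higher, PLIN2, against 5.3% of 13303 genes, and 1 was at least 2-fold lower, ANGPTL4, against 6.64%. With 8 genes, shares of this size amount to a single gene or less in each direction. Taken over the 8 genes, the log2 fold change had a median of 0.25 in CDK4/6 KD, 0.26 in PD0332991 and 0.24 in scrambled siRNA relative to DMSO, beside 0.00, 0.02 and 0.01 over all genes past the filter. The median in the treated libraries was therefore of the size seen between the controls. The interval lay above 1 for 5 of the 8 genes in CDK4/6 KD, where it did so for 30.0% of all genes, and for 5 in PD0332991, where it did so for 28.1%. It lay above 1 for 5 genes also between the controls, beside 28.3% of all genes. The comparisons of PD0332991 and of scrambled siRNA share the DMSO library, and those of CDK4/6 KD and scrambled siRNA share the scrambled siRNA library.

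**Figure D1:**
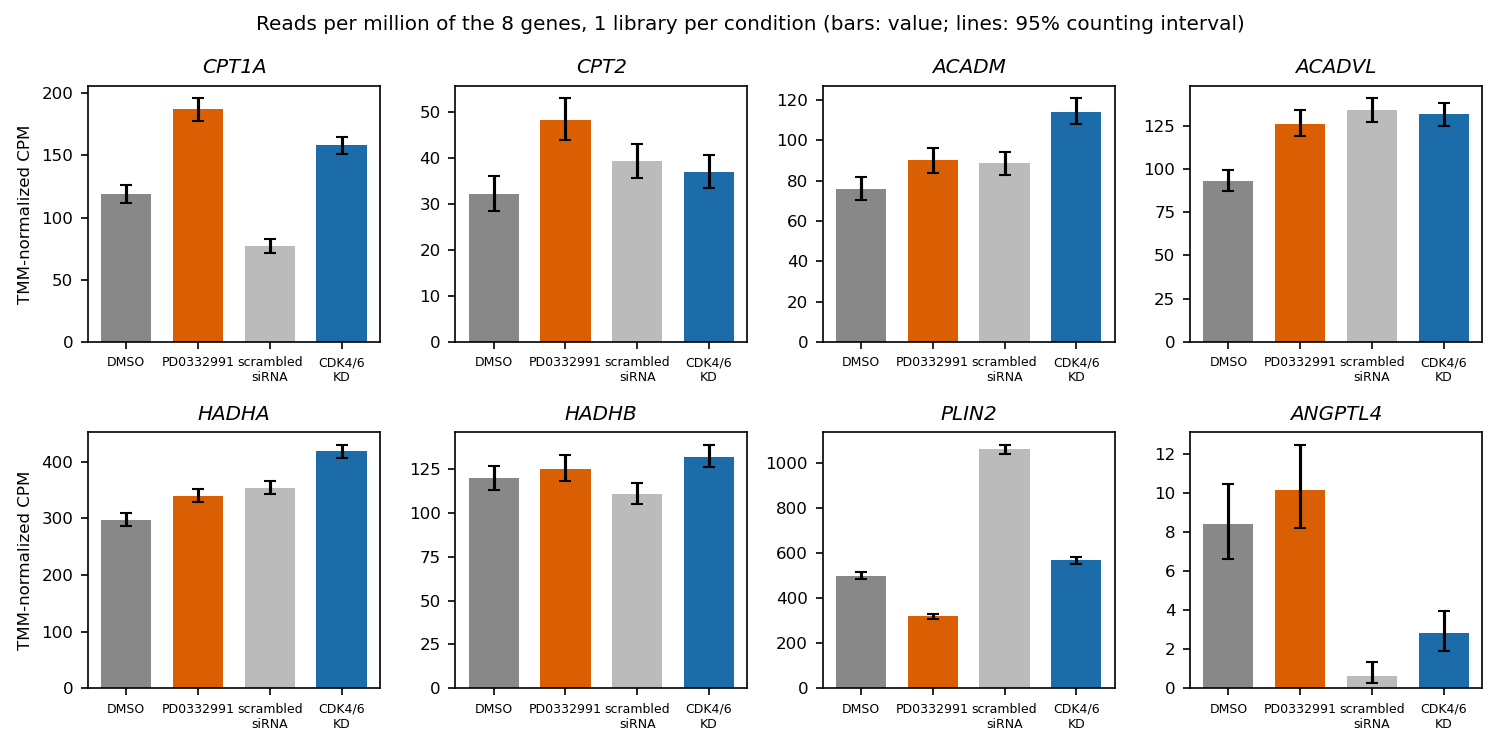
Level of each of the 8 genes in the 4 libraries, as TMM-normalized CPM on axes that start at 0 and differ between panels. Bars are the value of the 1 library per condition and lines its exact 95% Poisson interval. CPT1A, ACADM and HADHB were higher in both treated libraries than in both controls, while PLIN2 stood highest and ANGPTL4 lowest in scrambled siRNA.

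CPT1A is the liver form of carnitine palmitoyltransferase 1, the enzyme of the outer mitochondrial membrane that controls the entry of long-chain fatty acids. It lies on the minus strand of chromosome 11 (GRCh38, 68754620 to 68844410, GENCODE release 29). CPT1A was counted with 1087 reads in DMSO, 1705 in PD0332991, 823 in scrambled siRNA and 1788 in CDK4/6 KD, or 119, 187, 76.9 and 158 CPM. Both treated libraries were above both controls, and scrambled siRNA was the lowest of the 4. In CDK4/6 KD it was 2.05-fold above scrambled siRNA (interval 1.89 to 2.23), which crosses the 2-fold limit. It was 1.57-fold higher in PD0332991 than in DMSO (1.46 to 1.7). The controls themselves differed, scrambled siRNA being at 0.647 times DMSO (0.59 to 0.708). Against the control of the other arm, CPT1A was 1.33-fold higher in CDK4/6 KD (1.23 to 1.43) and 2.43-fold higher in PD0332991 (2.24 to 2.65). Each step in the order from scrambled siRNA through DMSO and CDK4/6 KD to PD0332991 had an interval above 1. ACADM and HADHB were also higher in both treated libraries than in both controls, but not every fold exceeded counting error. Among genes averaging 500 reads or more, those whose pattern over the 4 libraries was most like that of CPT1A were ALDH6A1, PDPK1 and RBP4, with root mean square differences of centred log2 CPM of 0.0608, 0.0655 and 0.0684. RBP4, the plasma carrier of retinol, was at 403 CPM in DMSO, 595 in PD0332991, 255 in scrambled siRNA and 473 in CDK4/6 KD.

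The 250 bases before the RefSeq start of CPT1A are shown (GRCh38.p14, chr11:68844278-68844527, minus strand, 5′ to 3′). This gene was chosen because both treated libraries exceeded both controls with every interval above 1. In all, 4 short motifs were searched in such windows of all 8 genes: AGGTCA, the core hexamer bound by many nuclear receptors, the GC box CCGCCC and the E-box CACGTG on both strands, and TATAAA on the gene's strand. They occurred in 12.1%, 42.6%, 6.34% and 6.8% of the 35116 windows in the RefSeq table. The window of CPT1A held none of the 4.
CPT1A: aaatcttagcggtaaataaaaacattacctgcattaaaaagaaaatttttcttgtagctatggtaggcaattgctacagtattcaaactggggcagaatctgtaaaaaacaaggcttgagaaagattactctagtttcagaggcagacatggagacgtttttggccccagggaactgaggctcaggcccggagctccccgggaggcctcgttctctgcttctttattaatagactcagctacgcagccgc
AGGTCA was in none of the windows of the 8 genes, which says only that these letters are not in them.

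CPT2, in the inner membrane, returns the fatty acid from carnitine to coenzyme A. It lies on the plus strand of chromosome 1 (53196429 to 53214197), and its 3′ end overlaps C1orf123 and AL606760.2 on the opposite strand. Since the counting is not stated to use strand, reads of these genes cannot be told apart. CPT2 had 294 reads in DMSO, 440 in PD0332991, 420 in scrambled siRNA and 419 in CDK4/6 KD, or 32.2, 48.3, 39.3 and 37.0 CPM. PD0332991 was the highest library, and the siRNA libraries lay close together. It was 1.5-fold higher in PD0332991 than in DMSO (1.29 to 1.75). In CDK4/6 KD it was at 0.943 times scrambled siRNA, with an interval that holds 1 (0.822 to 1.08). The steps from DMSO to CDK4/6 KD (1.15, 0.989 to 1.34) and from there to scrambled siRNA (1.06, 0.924 to 1.22) did not exceed counting error.

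ACADM and ACADVL encode the medium-chain and very-long-chain acyl-CoA dehydrogenases, which catalyse the first step of each beta-oxidation cycle. ACADM lies on the plus strand of chromosome 1 (75724347 to 75787575), and RABGGTB and SNORD45C on the same strand overlap its last 1000 bases. Reads from that overlap cannot be told apart, even with strand. ACADM had 693 reads in DMSO, 820 in PD0332991, 948 in scrambled siRNA and 1293 in CDK4/6 KD, or 75.8, 90.1, 88.6 and 114 CPM. CDK4/6 KD was the highest library and DMSO the lowest, and PD0332991 and scrambled siRNA did not differ beyond counting error (1.02, 0.925 to 1.12). ACADM in CDK4/6 KD was 1.29-fold above scrambled siRNA (1.18 to 1.4) and 1.19-fold higher in PD0332991 than in DMSO (1.07 to 1.32). Scrambled siRNA was itself 1.17-fold above DMSO (1.06 to 1.29), about as far as PD0332991 was. ACADVL lies on the plus strand of chromosome 17 (7217125 to 7225273). It had 851 reads in DMSO, 1151 in PD0332991, 1432 in scrambled siRNA and 1489 in CDK4/6 KD, or 93.1, 126, 134 and 132 CPM. DMSO stood below the other 3 libraries, and the steps among those 3 had intervals that hold 1. ACADVL was 1.36-fold higher in PD0332991 than in DMSO (1.24 to 1.48), and scrambled siRNA was 1.44-fold above DMSO (1.32 to 1.57). In CDK4/6 KD it was at 0.983 times scrambled siRNA (0.914 to 1.06).

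HADHA and HADHB encode the alpha and beta subunits of the mitochondrial trifunctional protein, which carries out the remaining steps for long-chain acyl-CoA. Both lie head to head on chromosome 2, HADHA on the minus strand (26190635 to 26244726) and HADHB on the plus strand (26243170 to 26290468). In the RefSeq table their starts are 306 bases apart, so that 194 bases belong to the upstream windows of both. The upstream window of HADHA is shown for this arrangement, read on the minus strand, with the stretch shared with HADHB in capitals (GRCh38.p14, chr2:26244633-26244882, 5′ to 3′).
HADHA: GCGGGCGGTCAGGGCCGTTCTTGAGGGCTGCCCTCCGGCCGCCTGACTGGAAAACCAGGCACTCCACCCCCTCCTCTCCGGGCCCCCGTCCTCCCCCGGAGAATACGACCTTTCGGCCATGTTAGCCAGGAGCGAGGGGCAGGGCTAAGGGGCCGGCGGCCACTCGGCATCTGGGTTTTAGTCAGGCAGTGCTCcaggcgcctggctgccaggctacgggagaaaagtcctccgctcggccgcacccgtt
HADHA had 2717 reads in DMSO, 3091 in PD0332991, 3792 in scrambled siRNA and 4726 in CDK4/6 KD, or 297, 339, 354 and 418 CPM. CDK4/6 KD was the highest library, and PD0332991 and scrambled siRNA did not differ beyond counting error (1.04, 0.995 to 1.1). HADHA in CDK4/6 KD was 1.18-fold above scrambled siRNA (1.13 to 1.23) and 1.14-fold higher in PD0332991 than in DMSO (1.08 to 1.2). HADHAP1 and HADHAP2 are processed pseudogenes of HADHA, and how reads shared with them were counted is not given in the sources used here.

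HADHB had 1095 reads in DMSO, 1141 in PD0332991, 1186 in scrambled siRNA and 1498 in CDK4/6 KD, or 120, 125, 111 and 132 CPM. It varied least among the 8 genes, the highest library being 1.19 times the lowest. HADHB in CDK4/6 KD was 1.19-fold above scrambled siRNA (1.11 to 1.29), while every step between neighbouring libraries had an interval that holds 1. The fold in PD0332991 was 1.05 (0.962 to 1.14). The ratio of HADHA to HADHB reads was 2.48 in DMSO (2.31 to 2.66), 2.71 in PD0332991 (2.53 to 2.9), 3.2 in scrambled siRNA (2.99 to 3.42) and 3.15 in CDK4/6 KD (2.98 to 3.35). The siRNA libraries had higher ratios than DMSO and PD0332991, with intervals that do not overlap, and within each arm the intervals overlapped. A ratio of 3′ tags is not a ratio of subunits.

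**Figure D2:**
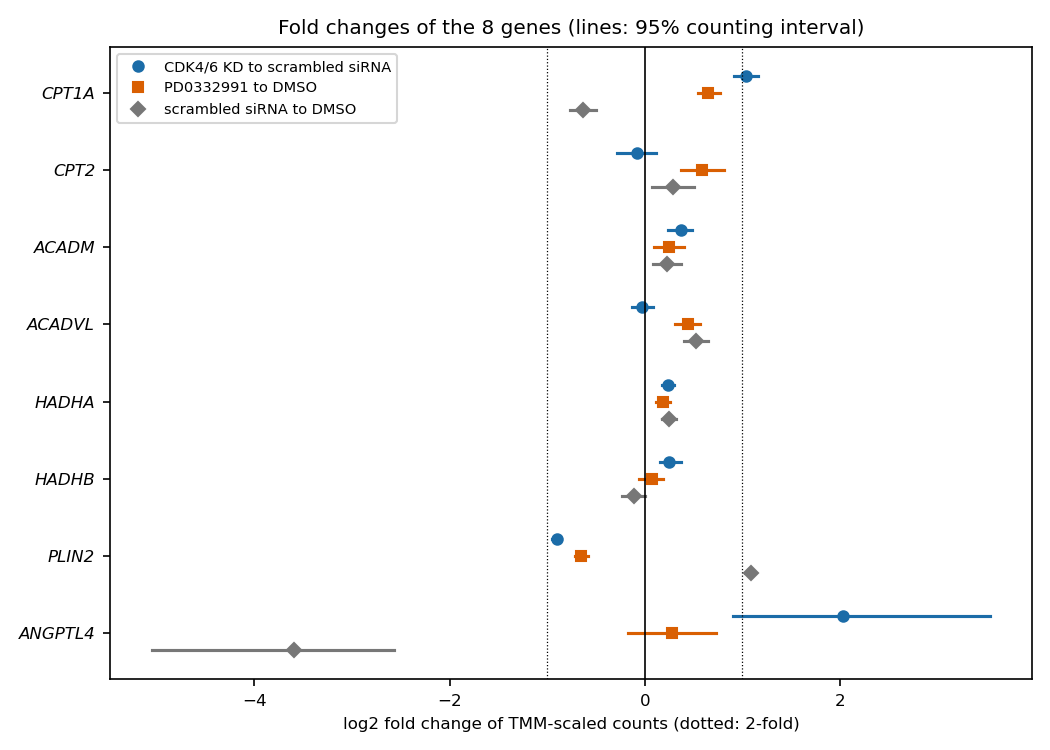
Log2 fold change of each of the 8 genes in CDK4/6 KD relative to scrambled siRNA (circles), in PD0332991 relative to DMSO (squares) and in scrambled siRNA relative to DMSO (diamonds), with exact 95% counting intervals as lines and 2-fold as dotted lines. The 6 oxidation enzymes lay between 0.647-fold and 2.05-fold, while PLIN2 and ANGPTL4 differed most between the controls.

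PLIN2 is the perilipin that coats lipid droplets in most cells, hepatocytes included. It lies on the minus strand of chromosome 9 (19108375 to 19149290). PLIN2 had 4568 reads in DMSO, 2904 in PD0332991, 11319 in scrambled siRNA and 6413 in CDK4/6 KD, or 500.0, 319, 1060 and 567 CPM. Each treated library was below its own control, and scrambled siRNA was the highest library. PLIN2 was at 0.638 times DMSO in PD0332991 (0.609 to 0.668), and at 0.536 times scrambled siRNA in CDK4/6 KD (0.519 to 0.552), just short of the 2-fold limit. Scrambled siRNA was 2.12-fold above DMSO (2.04 to 2.19). The direction in CDK4/6 KD turned with the control, because CDK4/6 KD was 1.13-fold above DMSO (1.09 to 1.18). PD0332991 was below both controls, at 0.302 times scrambled siRNA (0.289 to 0.314). The genes most like PLIN2 in pattern were VASP, RCL1 and MORC4, with differences of 0.126, 0.167 and 0.189. VASP, a regulator of actin filaments, was at 66.8 CPM in DMSO, 49.5 in PD0332991, 140.0 in scrambled siRNA and 69.1 in CDK4/6 KD.

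ANGPTL4 lies on the plus strand of chromosome 19 (8363289 to 8374373), with the antisense gene RAB11B-AS1 at its 3′ end, whose reads cannot be told apart without strand. ANGPTL4 had 77 reads in DMSO, 93 in PD0332991, 7 in scrambled siRNA and 32 in CDK4/6 KD, or 8.43, 10.2, 0.654 and 2.83 CPM. Both siRNA libraries were below both libraries without siRNA, and scrambled siRNA was the lowest. In CDK4/6 KD it was 4.09-fold above scrambled siRNA, on few reads (1.87 to 11.6). Against DMSO, CDK4/6 KD was lower, at 0.339 times (0.215 to 0.513), so the direction in this arm turned with the control. In PD0332991 the fold relative to DMSO was 1.21, with an interval that holds 1 (0.886 to 1.66), and relative to scrambled siRNA it was 14.6 (7.28 to 39.9). Scrambled siRNA was at 0.083 times DMSO (0.0302 to 0.168). The most like genes were CCDC152, EMP2 and CEBPA, at differences of 0.486, 0.711 and 0.785, larger than those for CPT1A and PLIN2.

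The summed level of the 6 fibroblast markers stood in the same order of libraries as ANGPTL4. It was 48.3 CPM in DMSO, 78.9 in PD0332991, 8.6 in scrambled siRNA and 22.7 in CDK4/6 KD, with 4, 6, 2 and 4 of the 6 above 3 reads. COL1A1 made up most of it, with 36.3, 51.4, 6.82 and 18.3 CPM. The order was not that of every marker, since LUM had no reads in either siRNA library and DCN none in either control. Their part in the ANGPTL4 values was not tested. Adipocyte markers were at most at 1.33 CPM in sum. In bulk RNA, fewer cells of a type and less RNA per cell cannot be told apart.

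The upstream windows of PLIN2 (GRCh38.p14, chr9:19127493-19127742, minus strand) and ANGPTL4 (chr19:8363905-8364154, plus strand) are shown because these genes differed most between the controls, with the matched motifs in capitals. PLIN2 held 2 GC boxes and 1 E-box, the last base of the E-box at -64 from the start, and ANGPTL4 held 2 GC boxes and a TATAAA whose last base is at -24. None of these matches overlapped another, and a match is a description of letters, not of a bound site.
PLIN2: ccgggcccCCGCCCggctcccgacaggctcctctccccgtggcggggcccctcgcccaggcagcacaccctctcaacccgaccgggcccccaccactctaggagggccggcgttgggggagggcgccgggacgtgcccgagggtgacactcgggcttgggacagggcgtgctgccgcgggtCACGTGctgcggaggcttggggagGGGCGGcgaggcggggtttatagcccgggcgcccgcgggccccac
ANGPTL4: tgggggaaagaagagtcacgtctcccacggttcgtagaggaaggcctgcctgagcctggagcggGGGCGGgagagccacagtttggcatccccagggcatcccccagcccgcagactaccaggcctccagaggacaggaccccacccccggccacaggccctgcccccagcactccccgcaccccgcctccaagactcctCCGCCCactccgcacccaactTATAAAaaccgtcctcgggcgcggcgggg

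**Figure D3:**
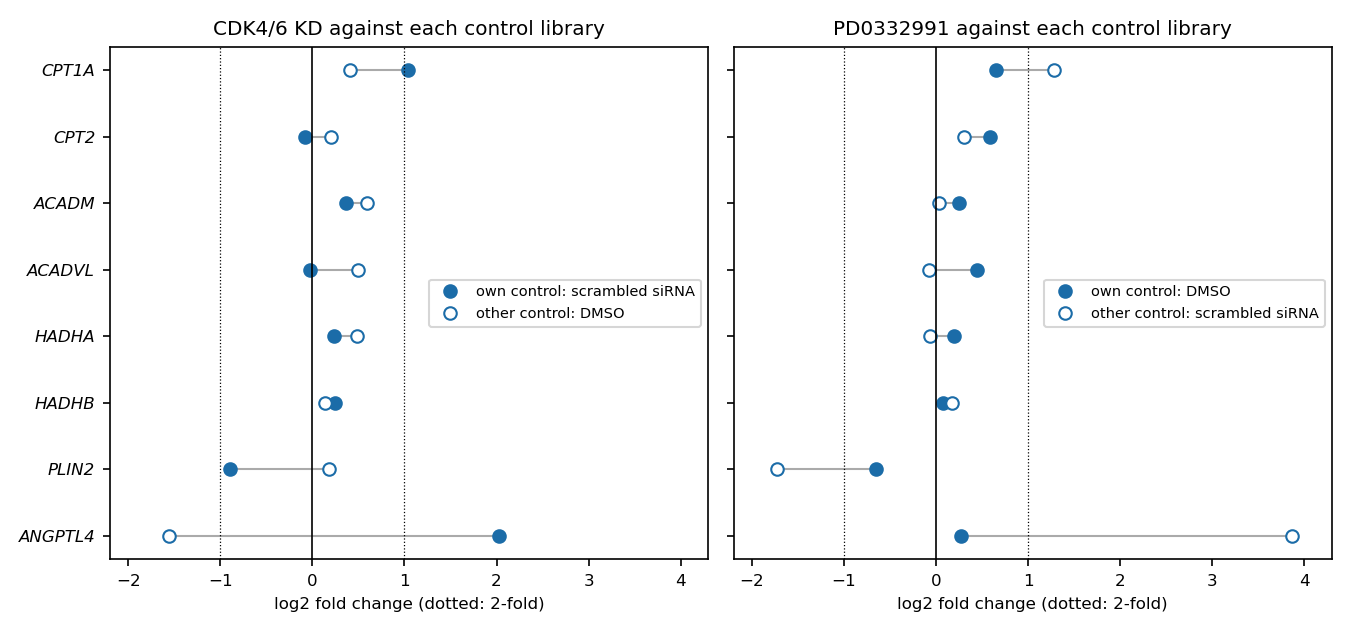
Log2 fold change of the 8 genes in CDK4/6 KD (left) and PD0332991 (right) against the control of the same arm (filled) and of the other arm (open), with 2-fold as dotted lines. CPT1A, ACADM and HADHB were above 0 against either control in both panels. ANGPTL4, PLIN2, CPT2 and ACADVL in CDK4/6 KD, and ACADVL and HADHA in PD0332991, changed side of 0.

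The DMSO and PD0332991 libraries came from cells without siRNA, and the siRNA libraries from transfected cells. Transfection, culture time and any other difference between the arms cannot be told apart. For PLIN2, ANGPTL4 and ACADVL the controls differed by more than any library did from the control of its own arm. The same held narrowly for HADHA, at 1.19-fold beside 1.18-fold in CDK4/6 KD and 1.14-fold in PD0332991. Folds across arms are given as values only.

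The other genes of the pathway were read from lists chosen with earlier results of these data known. In the carnitine shuttle, 7 of 8 listed genes passed the filter in each arm. In PD0332991 their median log2 fold change was 0.65, and 6 of the 7 had intervals above 1, beside 28.1% of all genes. Leaving out CPT1A and CPT2, the median over the other 5 was 0.96. CPT1B, the muscle form of the enzyme, was 2.34-fold higher (1.64 to 3.42), with 44 reads in DMSO against 103. SLC25A20, the carrier that exchanges acylcarnitine across the inner membrane, was 1.95-fold higher (1.57 to 2.44). In CDK4/6 KD the median was 0.27 and 1 gene, CPT1A, was at least 2-fold higher, beside 9.19% of all genes. SLC25A20 was there at 0.666 times scrambled siRNA (0.519 to 0.851), the opposite side from PD0332991. CPT1B was at 1.2-fold (0.884 to 1.64), and CPT1C had at most 2 reads in any library. Against scrambled siRNA, CPT1B in PD0332991 was 1.57-fold, below the 2-fold limit. The list then had a median of 0.84 in PD0332991, with 6 of 7 intervals above 1, beside 30.5% of all genes. Between the controls its median was 0.12, and in CDK4/6 KD relative to DMSO it was 0.38. With the control of the other arm, SLC25A20 was at 1.79 (1.46 to 2.2) in PD0332991 and 0.726 (0.558 to 0.941) in CDK4/6 KD.

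In mitochondrial beta-oxidation, 17 of 18 genes passed the filter in each arm. The median over the 13 genes other than ACADM, ACADVL, HADHA and HADHB was 0.21 in CDK4/6 KD and 0.23 in PD0332991. Between the controls, scrambled siRNA relative to DMSO, it was 0.01. In CDK4/6 KD 1 of the 17 was at least 2-fold higher, ACAD10 (2.25, 1.69 to 3.05), and none lower, beside 9.19% and 7.62% of all genes. In PD0332991, 2 were at least 2-fold higher, DECR1 (2.13, 1.82 to 2.51) and ACAD11 (2.07, 1.78 to 2.43), and none lower. Over all genes these shares were 7.49% and 7.07%. DECR1, which handles unsaturated fatty acids, was at 0.816 times scrambled siRNA in CDK4/6 KD (0.7 to 0.951). HADH, the short-chain hydroxyacyl-CoA dehydrogenase, was 1.4-fold higher in CDK4/6 KD (1.21 to 1.62) and at 0.631 times DMSO in PD0332991 (0.54 to 0.735). Its level in scrambled siRNA was also 0.628 times DMSO (0.541 to 0.726). The control of the other arm ended the 2-fold calls of ACAD10 in CDK4/6 KD (1.76), and of DECR1 (1.53) and ACAD11 (1.07) in PD0332991. It gave HADH 0.878 in CDK4/6 KD and 1.01 in PD0332991, and DECR1 1.13 in CDK4/6 KD. ACAD11 in CDK4/6 KD was 1.99-fold above scrambled siRNA (1.8 to 2.21) and 3.87-fold above DMSO (3.37 to 4.46). Scrambled siRNA was itself 1.94-fold above DMSO for ACAD11 (1.67 to 2.27).

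Of the 17 listed genes of peroxisomal oxidation, 16 passed the filter, with medians of 0.23 in CDK4/6 KD and 0.44 in PD0332991. None was at least 2-fold higher in either arm, beside 9.19% of all genes in CDK4/6 KD and 7.49% in PD0332991. In PD0332991 the interval lay above 1 for 12 of the 16, beside 28.1% of all genes. The same held for 10 of the 16 in CDK4/6 KD, beside 30.0%. Between the controls it held for 6 of the 16, beside 28.3%. Relative to scrambled siRNA, PD0332991 had 5 of 16 intervals above 1, beside 30.5% of all genes, and a median of 0.13. Relative to DMSO, CDK4/6 KD had 11 of 16, beside 28.9%, and a median of 0.32. Among ketone body enzymes, the medians were 0.86 in PD0332991 over 4 genes and 0.44 in CDK4/6 KD over 5. None of the 5 was past 2-fold in CDK4/6 KD, where 9.19% of all genes were higher and 7.62% lower. The controls themselves differed, with a median of 0.65 in scrambled siRNA relative to DMSO over 5 genes. With the control of the other arm, the medians were 0.07 in PD0332991 and 1.02 in CDK4/6 KD. BDH1, which interconverts the main ketone bodies, had 200 reads in DMSO, 673 in PD0332991, 345 in scrambled siRNA and 503 in CDK4/6 KD. It was 3.37-fold higher in PD0332991 (2.88 to 3.97) and 1.38-fold in CDK4/6 KD (1.2 to 1.59).

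**Figure D4:**
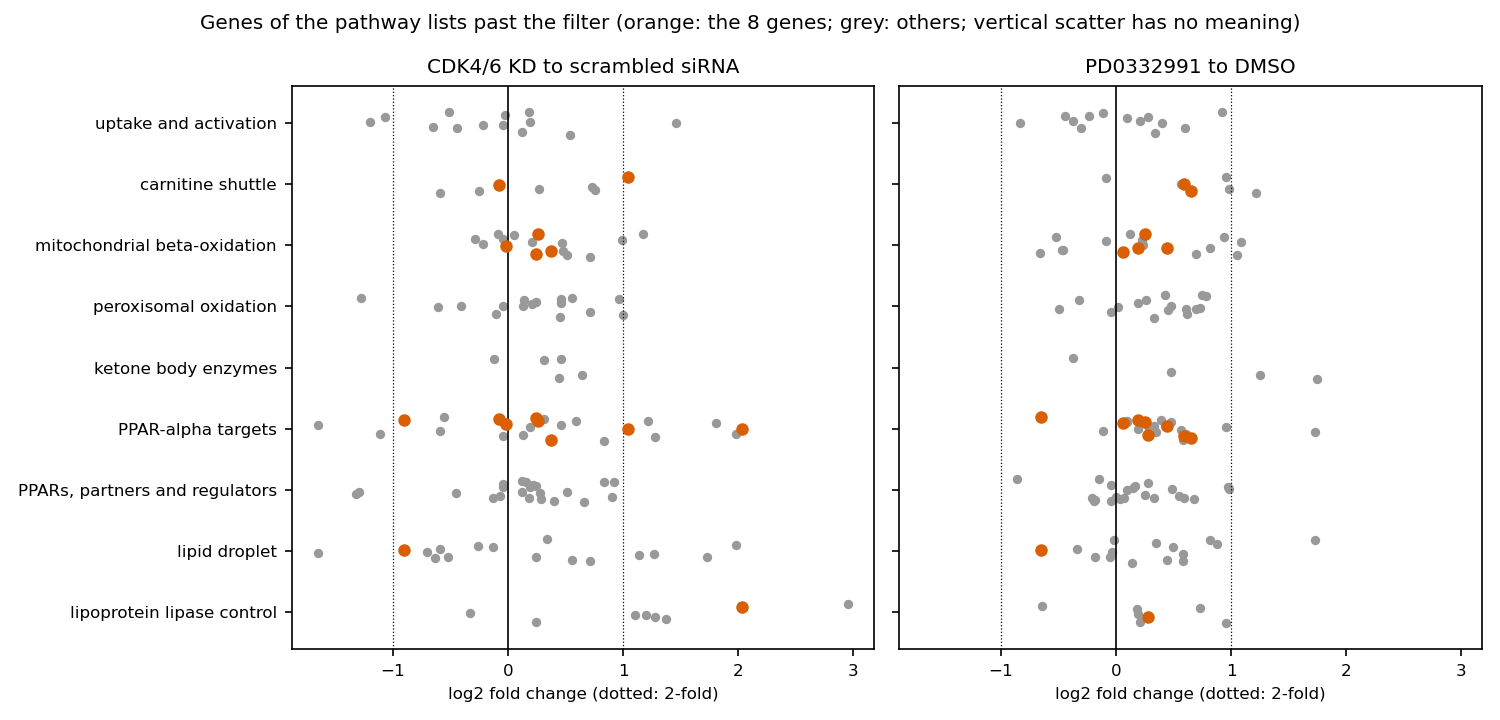
Log2 fold change of every listed gene past the 10-read filter in CDK4/6 KD relative to scrambled siRNA (left) and PD0332991 relative to DMSO (right), 1 row per list, with the 8 genes in orange and 2-fold as dotted lines. A gene on several lists appears in each, and the lipoprotein lipase list lay highest in CDK4/6 KD, with a median of 1.24 including ANGPTL4.

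Of the 21 other PPAR-alpha targets listed, 17 passed the filter in CDK4/6 KD, with a median of 0.19, of which 4 were past 2-fold upward and 2 downward, beside 9.19% and 7.62% of all genes. In PD0332991, 15 passed with a median of 0.39, 1 of them past 2-fold upward and none downward, beside 7.49% and 7.07%. Between the controls, 16 passed with a median of 0.20 in scrambled siRNA relative to DMSO. Of these, 4 were past 2-fold upward and 1 downward, beside 5.3% and 6.64%. With the control of the other arm, the medians were 0.70 in CDK4/6 KD and 0.05 in PD0332991. The acyl-CoA thioesterase genes ACOT1 and ACOT2 were 3.5-fold (2.86 to 4.34) and 2.33-fold (2.13 to 2.56) higher in CDK4/6 KD, and 1.07-fold (0.889 to 1.29) and 1.26-fold (1.14 to 1.38) in PD0332991. Against DMSO, CDK4/6 KD was 1.56-fold for ACOT1 and 1.67-fold for ACOT2, below the 2-fold limit. They are close paralogs, so how reads were split between them is uncertain. Several targets were hardly counted: PDK4 had at most 2 reads and FGF21 at most 1 in any library. FABP1, the fatty acid binding protein of liver, stood 3.48-fold above DMSO in scrambled siRNA (3.36 to 3.61) and at 0.979 times scrambled siRNA in CDK4/6 KD.

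PPARA, which encodes the receptor itself, had 335 reads in DMSO, 488 in PD0332991, 287 in scrambled siRNA and 567 in CDK4/6 KD, or 36.7, 53.6, 26.8 and 50.1 CPM. Both treated libraries were above both controls. It was 1.87-fold higher in CDK4/6 KD (1.62 to 2.16) and 1.46-fold in PD0332991 (1.27 to 1.68). Scrambled siRNA was itself at 0.732 times DMSO (0.623 to 0.859). With the control of the other arm, PPARA was 1.37-fold in CDK4/6 KD (1.19 to 1.57) and 2.0-fold in PD0332991 (1.72 to 2.32). RXRA, the partner of PPAR-alpha, was 1.78-fold higher in CDK4/6 KD (1.62 to 1.96) and 1.4-fold in PD0332991 (1.27 to 1.55), each relative to its own control. Its level was 76.7 CPM in DMSO and 62.1 in scrambled siRNA. PPARGC1A, the coactivator PGC-1alpha, was 1.97-fold higher in PD0332991 (1.58 to 2.47) and 1.22-fold in CDK4/6 KD (0.88 to 1.69). PPARD was 1.9-fold (1.45 to 2.51) in CDK4/6 KD and 0.882-fold (0.653 to 1.19) in PD0332991, and PPARG was 1.32-fold (1.07 to 1.64) and 0.552-fold (0.383 to 0.783). ACACB, which makes the malonyl-CoA that inhibits CPT1, was 1.22-fold (1.01 to 1.49) and 1.51-fold (1.26 to 1.81). The deacetylase gene SIRT3, whose modulation the study was about, was 1.14-fold (1.03 to 1.27) in CDK4/6 KD and 0.867-fold (0.771 to 0.975) in PD0332991. With the control of the other arm both SIRT3 intervals hold 1, at 1.1-fold (0.989 to 1.22) in CDK4/6 KD and 0.903-fold (0.805 to 1.01) in PD0332991. Over the 22 receptors, partners and regulators past the filter the medians were 0.19 and 0.13. PRKAG1, a subunit of AMP-activated kinase, was 1 of 2 that were at least 2-fold lower in CDK4/6 KD (0.409, 0.359 to 0.465). Over all genes 7.62% were lower there and 9.19% higher, and none of the 22 was at least 2-fold higher. None was past 2-fold in PD0332991, where 7.49% of all genes were higher and 7.07% lower. Against DMSO, CDK4/6 KD was at 0.586 for PPARGC1A and 0.938 for ACACB, on the other side of 1, and at 0.734 for PRKAG1, whose call ended. For PPARD, CDK4/6 KD was 1.33-fold above DMSO (1.03 to 1.72).

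**Figure D5:**
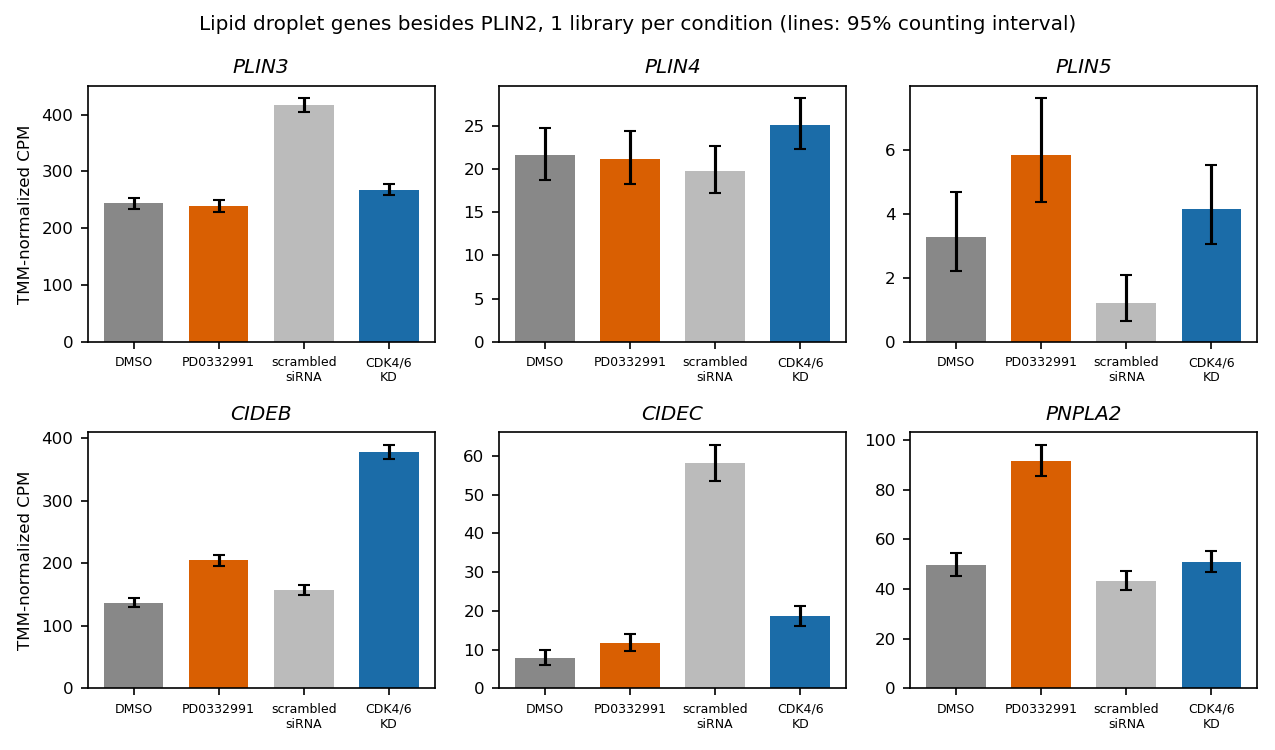
Levels of 6 lipid droplet genes other than PLIN2 in the 4 libraries, as TMM-normalized CPM on axes that start at 0, with exact 95% Poisson intervals as lines. PLIN3 and CIDEC were highest in scrambled siRNA, as PLIN2 was, while PLIN5 was lowest there.

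Among the genes that share the droplet surface with PLIN2, PLIN3 was at 244 CPM in DMSO, 239 in PD0332991, 417 in scrambled siRNA and 268 in CDK4/6 KD. It was at 0.644 times scrambled siRNA in CDK4/6 KD (0.615 to 0.675) and at 0.979 times DMSO in PD0332991 (0.923 to 1.04). PLIN4 was 1.27-fold (1.06 to 1.52) and 0.983-fold (0.802 to 1.21). PLIN5 had 30, 53, 13 and 47 reads in the same order of libraries and was 3.32-fold higher in CDK4/6 KD (1.82 to 6.89). PLIN1 had at most 10 reads. CIDEC, which promotes the fusion of droplets, was at 7.77 CPM in DMSO, 11.6 in PD0332991, 58.1 in scrambled siRNA and 18.6 in CDK4/6 KD. It stood highest in scrambled siRNA, as PLIN2 did, and was at 0.32 times that library in CDK4/6 KD (0.272 to 0.374). CIDEB, its liver relative, was 2.4-fold higher in CDK4/6 KD (2.27 to 2.55) and 1.49-fold in PD0332991 (1.39 to 1.61). PNPLA2, the lipase that starts the breakdown of stored triglyceride, was 1.84-fold in PD0332991 (1.64 to 2.07) and 1.18-fold in CDK4/6 KD (1.04 to 1.33). Over the 15 droplet genes other than PLIN2 past the filter in CDK4/6 KD, 4 were at least 2-fold higher and 1 lower, beside 9.19% and 7.62% of all genes. Against DMSO, CDK4/6 KD was 1.1-fold for PLIN3, 1.26-fold for PLIN5, 2.76-fold for CIDEB and 2.38-fold for CIDEC, so the direction turned for PLIN3 and CIDEC and the call ended for PLIN5.

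Beside ANGPTL4, 7 other genes of the list of lipoprotein lipase control, which also holds related lipases such as LIPC, passed the filter in CDK4/6 KD. Of these, 5 were at least 2-fold higher, beside 9.19% of all genes, and none lower, and the median log2 fold change of the 7 was 1.20. In PD0332991 none of 6 was past 2-fold, where 7.49% of all genes were higher and 7.07% lower. Their median there was 0.20, and 5 of the 6 intervals lay above 1, beside 28.1% of all genes. In CDK4/6 KD, APOC3 was 2.58-fold (2.47 to 2.69), APOA5 2.43-fold (2.16 to 2.74) and LIPC 2.14-fold (1.91 to 2.4) higher. APOC3 in PD0332991 was 1.95-fold above DMSO (1.85 to 2.05) and 1.77-fold above scrambled siRNA (1.69 to 1.86). Against DMSO, CDK4/6 KD was 2.84-fold for APOC3, 1.77-fold for APOA5 and 1.15-fold for LIPC, with 3 of the 7 at least 2-fold higher and a median of 0.82. Between the controls the median of the list, scrambled siRNA relative to DMSO, was -0.27 over 6 genes. LPL itself had no reads in any library, and ANGPTL8 was not matched by symbol. Of the 8 hepatocyte markers, 2 were at least 2-fold higher in CDK4/6 KD relative to scrambled siRNA, beside 9.19% of all genes. They were ALB (2.01, 1.98 to 2.04) and FGB (2.62, 2.51 to 2.74). Against DMSO these were 1.56-fold and 2.05-fold. The median log2 fold change of the 8 relative to scrambled siRNA was 0.46. The interval lay above 1 for 7 of them, beside 30.0% of all genes, and below 1 for APOB (0.868, 0.86 to 0.877). The part of the hepatocyte markers in the values of the lipoprotein lipase list was not tested.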

How the data were processed

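Total RNA (TRIzol) of HepG2 cells was made into QuantSeq 3′ libraries by the authors, who deposited raw read counts per gene symbol for each library. The submitters' processing notes name hg19, Bowtie2 and edgeR with no role or version. The counter, annotation and strand setting are not given in the sources used here. Samples were grouped by their titles. The files listed 25737 entries, and counts of 286 repeated symbols were summed. TMM factors (0.9574 to 1.029) were computed over all 4 libraries (edgeR 4.0.16, R 4.3.3). No replicate-based test (edgeR quasi-likelihood) was possible with single libraries. Folds used 0.5 added reads, a filter of 10 reads in either library, and exact Clopper-Pearson 95% intervals (scipy 1.17.1), checked on simulated counts. A gene at or under 3 reads was treated as at the floor. The alternatives were DESeq2 1.42.0 size factors, total counts, quantile normalization (limma 3.58.1), another pseudocount, other filters and thresholds, the most counted entry of a symbol, and other controls. The 8 genes and the lists were chosen with earlier results of these data known. Apart from the 8 genes and a fixed set (kinases, PPARs, perilipins and enzymes named above), genes were named where past 2-fold with at least 50 reads in either library, at most 2 per list and direction, ranked by the interval end nearest 1, and the 3 most like genes where a member's highest library was at least 2 times its lowest. RXRA, FABP1, ACOT2, LIPC, PNPLA2, LPL, LUM and DCN fall outside this rule and were chosen after their values were seen. Gene positions are from GENCODE 29 (GRCh38) and promoter windows from RefSeq (GRCh38.p14), in which all 8 genes matched and ACADVL had 2 entries. The processing notes name another build, so positions serve as annotation only. Some listed genes are counted within their lists and not reported here by name.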

Additional observations from a re-analysis of the deposited data

Results flagged for a closer look

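Named genes of the lists that were past 2-fold in 1 arm and lay on the other side of 1, with an interval that excludes 1, in the other arm are given here. The difference between the arms was not tested, since each rests on 1 library per condition. ACSL5, an acyl-CoA synthetase, was at 0.436 in CDK4/6 KD relative to scrambled siRNA and 1.26 in PD0332991 relative to DMSO. CIDEC was at 0.32 and 1.5, PRKAG1 at 0.409 and 1.6, and the hypoxia-responsive gene NDRG1 at 0.388 and 1.57. DECR1 was at 0.816 and 2.13. With DMSO as the control, CDK4/6 KD was at 2.38 for CIDEC and 1.13 for DECR1, on the same side as PD0332991. CDK4/6 KD was then at 0.681 for ACSL5, 0.734 for PRKAG1 and 0.682 for NDRG1. With scrambled siRNA as the control, PD0332991 was at 0.807 for ACSL5, 0.895 for PRKAG1, 0.896 for NDRG1 and 0.201 for CIDEC. All of these lay below 1, as CDK4/6 KD did relative to scrambled siRNA, while DECR1 was at 1.53. None of the 8 genes met this condition.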

How the results depend on the processing

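The choice of control moved the values most. With the control of the other arm, the 8 genes gave 0 at least 2-fold higher and 1 lower in CDK4/6 KD, and 2 higher and 1 lower in PD0332991, whose median fell to 0.10. With the sum of both controls they gave 0 higher in CDK4/6 KD, and 1 higher and 1 lower in PD0332991, with a median of 0.13. ANGPTL4 in CDK4/6 KD reversed to -1.56 (log2) against DMSO and -0.57 against the sum. Against the other control the sign also turned for values not past 2-fold: in CDK4/6 KD PLIN2 (-0.90 to 0.18), CPT2 (-0.08 to 0.20) and ACADVL (-0.02 to 0.50), and in PD0332991 ACADVL (0.44 to -0.08) and HADHA (0.19 to -0.06). A filter of 50 reads, which ANGPTL4 does not pass in that arm, left 1 higher in CDK4/6 KD. A whole interval past 2-fold left 0. A 1.5-fold limit gave 1 lower in CDK4/6 KD, and 2 higher and 1 lower in PD0332991. Of the 16 log2 fold changes of single genes in both arms, besides that reversal, the value left its counting interval for 14 with the other control, 9 with the sum, 3 under quantile normalization and 2 under total counts, and for none under the other settings. The count between the controls was 2 under those run, but 3 at 1.5-fold.

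Over all genes, the counts higher and lower in CDK4/6 KD were 1252 and 1037, against 2996 and 2060 with no filter, 632 and 676 at 50 reads, 2636 and 2367 at 1.5-fold, and 454 and 438 with the whole interval. In PD0332991 they were 1007 and 950, against 2814 and 2037, 406 and 675, 2260 and 2024, and 226 and 455. Total counts shifted the median of all genes in CDK4/6 KD to 0.10. No paired analysis was possible because each condition had 1 library. Depth limited ANGPTL4 most, with 7 reads in scrambled siRNA.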

Other observations

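Genes of fatty acid uptake and activation had a median log2 fold change of -0.04 in CDK4/6 KD and 0.10 in PD0332991 over 13 genes. CD36, which takes up fatty acids, was 2.74-fold above scrambled siRNA in CDK4/6 KD (2.13 to 3.6) and at 0.811 times DMSO in PD0332991 (0.546 to 1.19). ACSL4, which activates polyunsaturated fatty acids, was at 0.475 (0.441 to 0.51) and 0.563 (0.526 to 0.602).

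Hypoxia-responsive genes, had medians of -0.48 over 12 genes in CDK4/6 KD and 0.01 over 10 in PD0332991. VEGFA was 2.11-fold higher (1.91 to 2.34) and ADM at 0.306 times scrambled siRNA (0.249 to 0.37) in CDK4/6 KD. DDIT4 was 2.87-fold higher in PD0332991 (2.5 to 3.31). With the control of the other arm these were 1.71, 0.662 and 1.04, none past 2-fold.

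Among markers of other cell types, the keratins KRT5 and KRT14 had 2 and 9 reads in DMSO and 113 and 249 in PD0332991. SFN, on the same list, went the other way, at 0.463 times DMSO in PD0332991 (0.418 to 0.512) and 0.334 times scrambled siRNA in CDK4/6 KD (0.312 to 0.357), and made up 134 of the 202 CPM of the list in DMSO. The summed keratinocyte markers lay between 196 and 361 CPM. The leukocyte list was carried by LYZ, at 742 CPM in DMSO, 504 in PD0332991, 1020 in scrambled siRNA and 501 in CDK4/6 KD.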
